A study of Mus musculus with 7 samples.

Results

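The clustered protocadherins were examined as a gene family in forebrain RNA of P15 mice that carry 1 or no working copy of Lhx6, a transcription factor of interneurons born in the medial ganglionic eminence (MGE). The study compared the genotypes to learn how the brain that receives grafted interneuron precursors differs without Lhx6. Genes were taken as members when their symbol matched Pcdha, Pcdhb or Pcdhga, Pcdhgb or Pcdhgc with a number and the deposited annotation called them protein coding. The symbol matched 59 genes, 1 of them is annotated as a polymorphic pseudogene, and 58 of the 47729 genes in the count table remained. All lie on the plus strand of chromosome 18 (GRCm38), with 14 genes of the alpha cluster at chr18:36930184-37187661, 22 of the beta cluster at chr18:37264938-37524479 and 22 of the gamma cluster at chr18:37661793-37841873.

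The 4 control libraries were Lhx6+/- and the 3 mutant libraries Lhx6-/-, so controls also carried one copy of the mutant allele, Lhx6tm2Vpa. All mice were F1(C57BL/6 X 129Sv), both sexes were used, and each library pooled the whole forebrain of 2 animals. The libraries are named here by the number in their column heading (controls 2, 3, 10 and 11, mutants 5, 12 and 13), because the sex and RNA quality given per pool cannot be tied to a column. In bulk tissue, fewer cells that express a gene and less RNA per cell cannot be told apart.

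Clustered protocadherins are cadherin-family adhesion proteins of the neuronal surface that bind the same isoform on a facing membrane. Each neuron uses only some of the variable promoters, chosen with the help of CTCF and cohesin, and the resulting mix of isoforms lets a neuron tell its own branches from those of others. In the alpha and gamma clusters each variable exon is spliced to constant exons that encode a common intracellular end, whereas beta genes stand alone. The C-type genes (Pcdhac1, Pcdhac2, Pcdhgc3, Pcdhgc4 and Pcdhgc5) lie at the ends of the alpha and gamma clusters and are regulated apart from the others. The gamma cluster, through Pcdhgc4, is known for its role in the survival of cortical interneurons.

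Libraries summed to between 32556304 and 38069151 expected counts. Lhx6 checked the labels, with 476 to 615 normalized counts in controls and 70.1 to 76.6 in mutants (log2 fold change -2.88 ± 0.14 (SE), edgeR adjusted p = 6.0e-05), and no library went against its genotype. Forebrain markers summed to 10303 to 11394 normalized counts and hindbrain and cerebellum markers to at most 49.2. The summed markers of a cell type did not overlap between genotypes for 7 of 15 lists, and no listed marker was at 0 in every library. Markers of MGE-derived interneurons summed to 15596 to 17171 in controls and 7995 to 9238 in mutants (5 of 7 genes called lower by edgeR), and those of oligodendrocytes to 234093 to 301285 and 167771 to 206215 (3 of 6 lower). Pan-neuronal and microglia markers were lower in sum with 0 of 6 called in each list, at 163856 to 178512 against 152936 to 162245 and at 9934 to 10353 against 8336 to 9767. In each list 1 of 6 estimates lay above 0, Map2 with 0.18 among pan-neuronal and Aif1 with 0.03 among microglia markers. Markers of CGE-derived interneurons (interneurons born in the caudal eminence) were higher in sum, at 11351 to 12888 against 18067 to 19794 (3 of 8 called). Of these 8, 2 had estimates below 0, and Npy alone had 2233 to 2745 in controls and 6799 to 8359 in mutants. Sums were also higher for astrocytes, at 71841 to 79240 against 100316 to 106567 (1 of 6). For endothelium and mural cells they were 10843 to 13432 against 13658 to 16963 (0 of 6). The part of these cell types in the values below was not tested.

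The constant exons limit how well neighbouring genes can be told apart. In the alpha cluster 38.9% to 91.4% of a gene's exon length (median 53.6%) is shared with another gene, in the gamma cluster 31.5% to 100% (median 44.7%), and in the beta cluster 0% to 9.67% (median 0%). The reads were 36 bases long, and 62.5% of the 36-base words of the median alpha gene also occur in another gene, against 8.86% for beta and 44.9% for gamma genes. RSEM divides such reads among the genes by estimate, and 95.8% of the members' counts were not exact whole numbers, against 65.1% over all tested genes. The value of a single alpha or gamma gene is therefore uncertain. Beta genes share less, but 94.8% of their counts were not whole either.

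Pcdha4 and Pcdhgb8 are the extremes. Pcdha4 has 494 of 5768 bases to itself, because besides the constant exons 41.8% of its exon length also belongs to Gm42416, an annotated coding gene with 0 counts in all 7 libraries. The coding entry of Pcdhgb8 lies wholly within the pseudogene entry of the same symbol. Pcdhgb8 had 147 normalized counts in control library 11 and was listed at 0 in the other 6 libraries, and the pseudogene entry had 231 in that library and 381 to 483 in the others. The entries together had 378 to 483, so that their total did not show the jump. Symbols were also doubled in 2 places. ENSMUSG00000007440 is listed as Pcdha11, also in GENCODE M21, but lies where RefSeq places Pcdha10, so that the second name rests on position in RefSeq alone. ENSMUSG00000023036, listed as Pcdhga8, is Pcdhgc4 in GENCODE M21 and in RefSeq. Both are given here by the second name.

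The C-type genes held most of the family's counts, with 24771 ± 3042 of 44166 ± 3014 normalized counts in controls (SD, n = 4). Per kilobase of exon that no other gene shares, Pcdhgc4 had the highest mean level in controls with 65.8 ± 26.1 CPM (library-scaled counts, SD, n = 4), then Pcdhgc3 with 58.5 ± 11.9, Pcdha4 with 47.9 ± 6.06, Pcdhgc5 with 35.0 ± 5.27 and Pcdhac2 with 31.2 ± 3.07. The neighbours Pcdhgc4 and Pcdhgc3, Pcdhgc3 and Pcdha4, and Pcdhgc5 and Pcdhac2 did not differ beyond their spread. The first place of Pcdhgc4 rests on control libraries 2 and 3, since in libraries 10 and 11 it had 5449 and 5395 normalized counts and Pcdhgc3, with own exon of nearly the same length, 6601 and 6905. The counts include reads in shared exons, and the place of Pcdha4 rests on its short length of own exon. Per kilobase of all exons it had 4.11 ± 0.52 CPM, behind Pcdhac2 with 16.1 ± 1.58, and the 4 genes at the top were then Pcdhgc4, Pcdhgc3, Pcdhgc5 and Pcdhac2.

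The other members had lower levels. Among alpha genes Pcdha12 followed with 10.7 ± 0.32 CPM per kilobase of own exon, and Pcdha8 was lowest with 0.44 ± 0.31. Among beta genes the highest was Pcdhb20 with 3.27 ± 0.42 and the lowest measured one Pcdhb1 with 0.027 ± 0.014, which had at most 4.07 normalized counts in any library. Gamma A and B genes reached 11.1 ± 1.89 for Pcdhga11 and went down to 2.07 ± 0.41 for Pcdhgb5. Pcdhac1, although C-type, had 4.97 ± 0.63 and sat among the ordinary alpha genes.

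**Figure D1:**
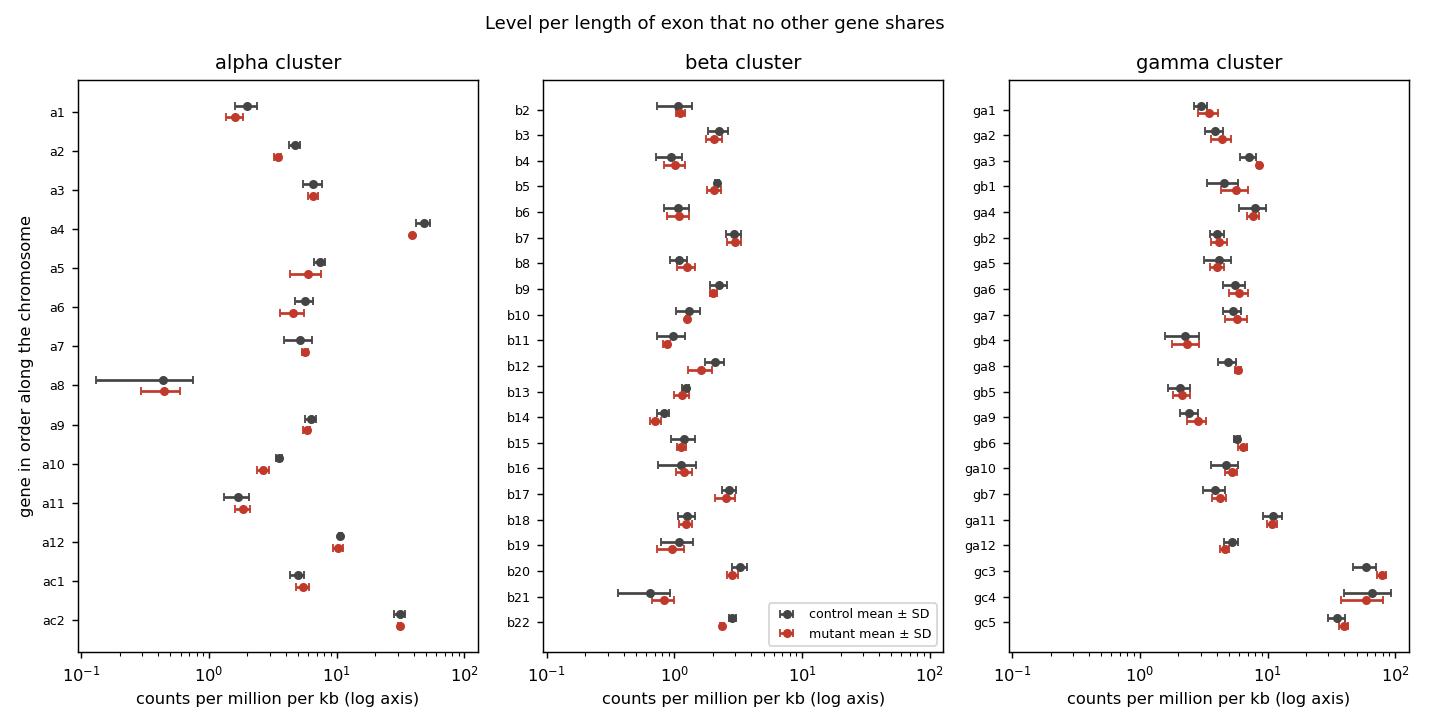
Level of the 56 tested clustered protocadherin genes as CPM per kilobase of exon that no other gene shares (log axis), in order along the chromosome from top to bottom, with points for the mean and bars for the SD of 4 control and 3 mutant libraries. Pcdhac2 and the 3 gamma C-type genes stand at 31.2 to 65.8 in controls, above all beta genes, and the high place of Pcdha4 comes with only 494 bases of own exon.

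The C-type genes took 70.4% ± 5.35 of the summed gamma counts in controls and 71.2% ± 4.39 in mutants (SD, n = 4 and 3), and 40.5% ± 2.66 and 43.4% ± 1.19 of the alpha sum. Together the 58 genes held 0.123% of a control library.

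Without a covariate, edgeR called no member different between the genotypes. Of the 56 members that passed the filter of 10 counts in 3 libraries, 0 were called lower and 0 higher at an adjusted p of 0.05 (edgeR), where 1.87% of the 19684 genes tested were called lower and 2.97% higher. Pcdhb1 and Pcdhgb8 did not pass the filter. At an unadjusted p of 0.05 edgeR had 4 members lower and 1 higher, against 8.32% and 9.92% of all genes, and limma-voom called 0 in either direction, against 1.80% lower and 3.09% higher. DESeq2 called 2 lower and 0 higher, against 3.88% and 5.29%. With the run of library numbers, described further on, as a covariate, edgeR called 4 lower and 0 higher, against 5.04% and 6.16%.

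The intervals show how large a difference the 7 libraries leave room for. The 95% interval of the log2 fold change lay within a change of 2-fold either way for 54 of the 56 members and within 1.5-fold for 35. The 2 wider ones were Pcdha8, from -1.47 to 1.52, and Pcdhb21, from -0.39 to 1.13. For Pcdhac2 the interval ran from -0.21 to 0.21, the mutant mean being 99.7% of the control mean.

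The clusters differed in which way their estimates lay, with no gene called in the fit without a covariate. In the alpha cluster 10 of 14 estimates were below 0 and the median log2 fold change was -0.08, in the beta cluster 14 of 21 and -0.08, and in the gamma cluster 5 of 21 and 0.12. Over all tested genes 52.2% of estimates were below 0 and the median was -0.01. The 6 tested gamma B genes all had estimates above 0, between 0.05 and 0.29, and their smallest adjusted p was 0.57 (edgeR), and with the covariate described further on 2 of them were below 0. These genes share exons and reads within a cluster, so their estimates are not separate observations.

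**Figure D2:**
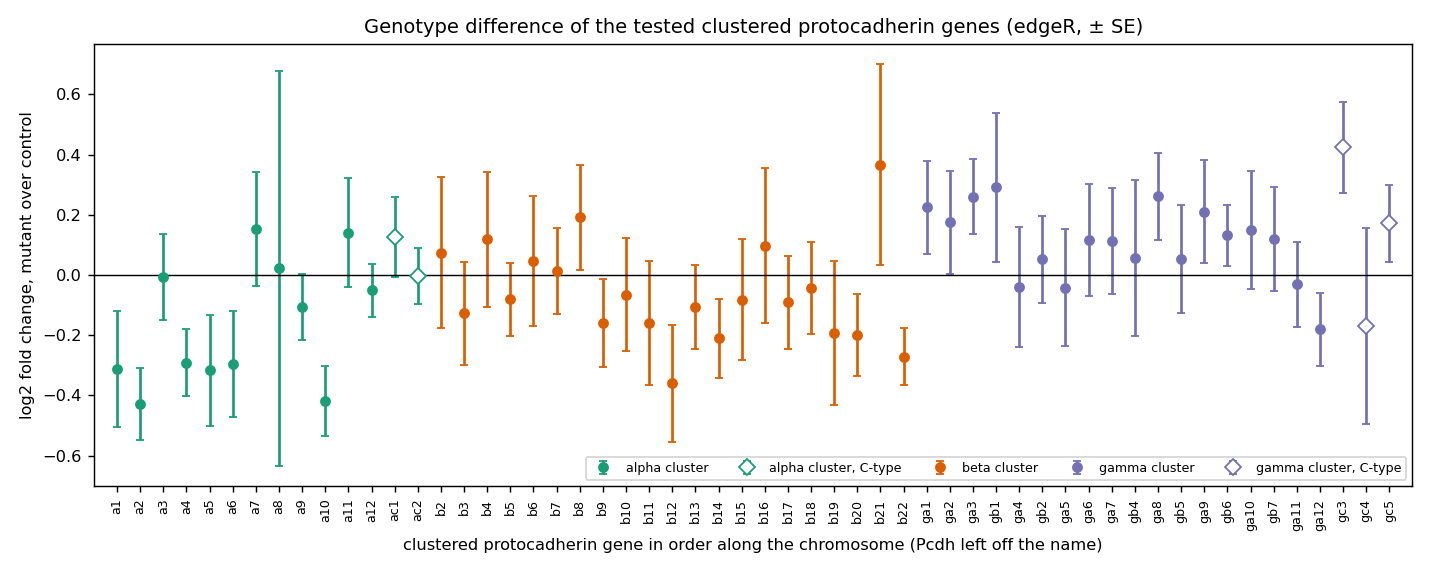
Log2 fold change of mutant over control for each of the 56 tested members in order along the chromosome, with bars of 1 SE from edgeR and open diamonds for the C-type genes. Most alpha and beta estimates lie below 0 and most gamma estimates above it, with medians of -0.08, -0.08 and 0.12, and no gene passed the adjusted test in this fit, which has no covariate.

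Among alpha genes, Pcdha2, Pcdha10 and Pcdha4 were lower in every mutant library than in every control. Pcdha2 had 434, 445, 434 and 355 normalized counts in controls (libraries 2, 3, 10 and 11, in this order throughout) and 326, 288 and 315 in mutants (5, 12 and 13). The groups did not overlap, and the log2 fold change was -0.43 ± 0.12 (SE), with an adjusted p of 0.085 by edgeR and 0.021 by DESeq2. Pcdha10 had 327, 299, 331 and 305 in controls and 214, 232 and 263 in mutants. Again all mutants lay below all controls, with -0.42 ± 0.12 and adjusted p-values of 0.086 (edgeR) and 0.032 (DESeq2). Both genes were called by DESeq2, and by edgeR with the covariate for the runs (adjusted p = 0.036 and 0.032), but not by edgeR without it, and limma-voom gave adjusted p-values of 0.086 and 0.083.

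Pcdha4 had 782, 1003, 789 and 801 normalized counts in controls and 688, 691 and 690 in mutants. The groups did not overlap, with -0.29 ± 0.11 and an adjusted p of 0.20 (edgeR), and the highest value was that of control library 3. Its interval ran from 68.7% to 97.2% of control. The next lower alpha estimates, for Pcdha1, Pcdha5 and Pcdha6, came with overlapping groups. Pcdha5 had 532 to 666 in controls and 349, 615 and 527 in mutants, with an estimate of -0.32 over all libraries, -0.11 without mutant library 5 and -0.03 in libraries 10 to 13 alone. Pcdha7 had the highest alpha estimate, 0.15 ± 0.19, and Pcdha8, with 4.02 in control library 3 and 27.9 to 70.2 in the other libraries, could not be placed.

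Among beta genes, Pcdhb22 was the one whose groups did not overlap. It had 572, 627, 623 and 673 normalized counts in controls and 500, 534 and 517 in mutants, with a log2 fold change of -0.27 ± 0.10 and an adjusted p of 0.18 (edgeR), or 0.049 with the covariate for the runs. Only 6.88% of its exon length is shared, with Pcdhb21. Pcdhb12 had the lowest beta estimate, -0.36 ± 0.19, with 191, 195, 249 and 268 in controls and 133, 191 and 204 in mutants. Its adjusted p was 0.39 without and 0.028 with the covariate (edgeR). Its groups overlapped, and 63.5% of its exon length lies under the antisense gene Gm37446, which had 18.1 to 49.4 in controls and 31.1 to 58.4 in mutants. The kit named in the labels, TruSeq RNA, does not mark strand, so reads of the pair cannot be told apart. Pcdhb20, the highest beta gene per kilobase, had 339 to 462 in controls and 333 to 403 in mutants, and Pcdhb21 had the highest estimate, 0.37 ± 0.33.

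Across the 56 tested members, groups did not overlap in 4 lower genes (Pcdha2, Pcdha4, Pcdha10 and Pcdhb22) and 2 higher genes (Pcdhga3 and Pcdhga8), where 9.00% of all tested genes were lower and 10.7% higher in this way.

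The higher ones were gamma A genes. Pcdhga3 had 671, 527, 682 and 752 normalized counts in controls and 801, 766 and 798 in mutants, with 0.26 ± 0.12 and an adjusted p of 0.32 (edgeR). Pcdhga8 had 469, 332, 495 and 446 in controls and 496, 524 and 547 in mutants, with 0.26 ± 0.14 and 0.40. In Pcdhga8 the highest control and the lowest mutant were 495 and 496, and for both genes control library 3 was lowest. Pcdhgb5, the lowest gamma gene per kilobase of own exon, had 251 to 414 in controls and 303 to 408 in mutants, and Pcdhga12 had the lowest gamma estimate, -0.18 ± 0.12.

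Pcdhgc3 was the member with the highest estimate. It had 9038, 5635, 6601 and 6905 normalized counts in the controls and 10251, 9244 and 8860 in the mutants. Control library 2 lay within the mutant range, and the other 3 controls lay below all mutants. The log2 fold change was 0.42 ± 0.15 with an adjusted p of 0.18 (edgeR) and 0.065 (DESeq2), and limma-voom gave an adjusted p of 0.15. With the covariate for the runs it was 0.45 and the adjusted p 0.082 (edgeR). Leaving out 1 library gave 0.33 to 0.57 with adjusted p-values of 0.032 to 0.35 (edgeR). Without control library 2 it was 0.57 and the adjusted p 0.032 (edgeR), and from libraries 10 to 13 alone it was 0.43 and 0.0081 (edgeR). That fit called 0 members lower and Pcdhgc3 alone higher, against 4.08% and 5.36% of all tested genes. As a share of the summed gamma counts, Pcdhgc3 took 26.5%, 19.7%, 23.8% and 24.3% in controls and 29.3%, 28.9% and 29.1% in mutants, and the groups did not overlap. The antisense gene BC037039 covers 28.4% of its exon length and had 48.0 to 156 normalized counts in controls and 92.1 to 242 in mutants.

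Pcdhgc4, the gamma isoform linked to interneuron survival, showed no genotype difference that stood out from the spread, and its spread had a pattern. Controls 2 and 3 had 10052 and 11722 normalized counts, whereas controls 10 and 11 had 5449 and 5395. Mutant 5 had 10259, whereas mutants 12 and 13 had 5739 and 5750. The values followed the library numbers and not the genotype. The log2 fold change was -0.17 ± 0.33 with an adjusted p of 0.85 (edgeR), and once the run of numbers was entered as a covariate it was 0.016 with 0.93. In the second run (10 to 13) alone it was 0.09, with an adjusted p of 0.42 (edgeR).

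Pcdhgc5 had 5859, 4519, 6101 and 6523 in controls and 6178, 7075 and 6185 in mutants, with overlapping groups and a log2 fold change of 0.17 ± 0.13 (adjusted p = 0.56, edgeR). Pcdhac1 had 395 to 529 in controls and 444 to 555 in mutants, and Pcdhac2 2873 to 3572 and 3314 to 3450.

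**Figure D3:**
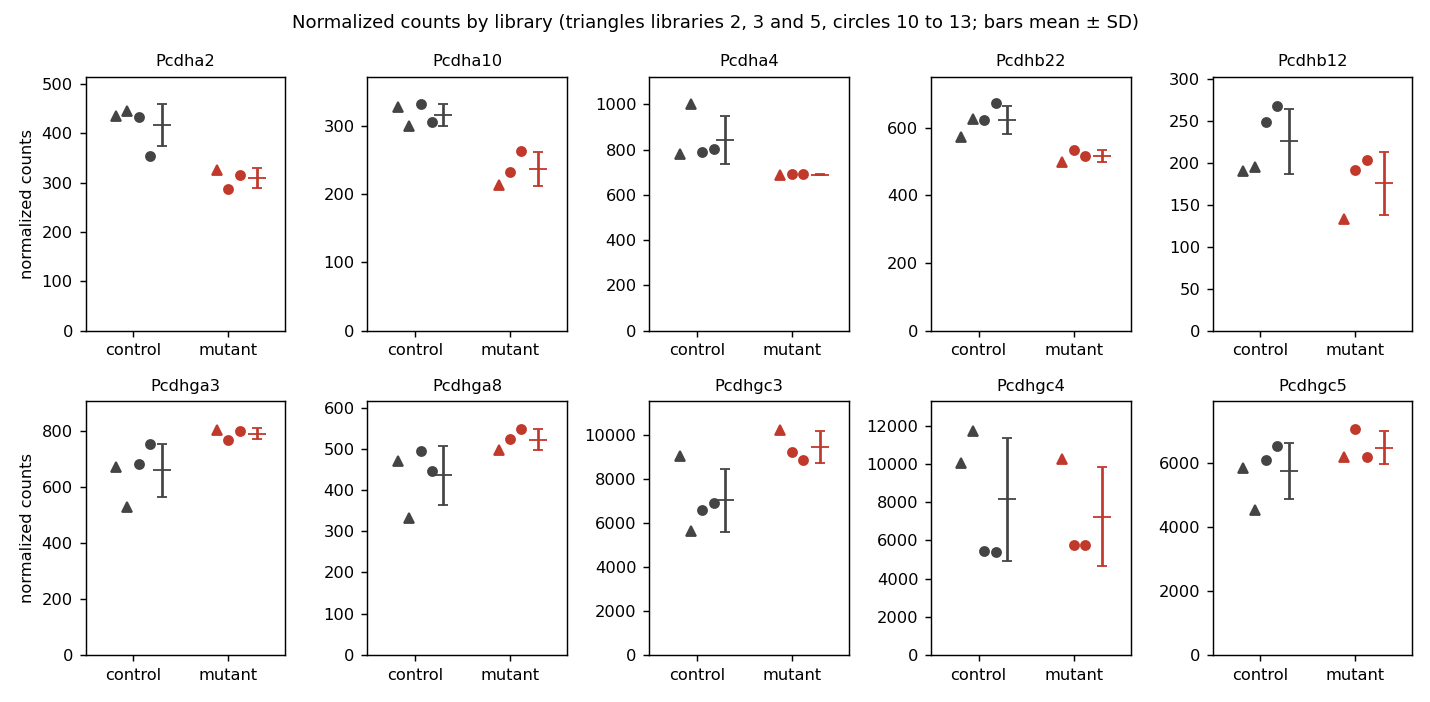
Normalized counts of 10 members by genotype, each axis starting at 0, with 1 point per library (triangles for libraries 2, 3 and 5, circles for 10 to 13) and bars for the mean ± SD. Pcdha2, Pcdha10, Pcdha4 and Pcdhb22 are lower and Pcdhga3 and Pcdhga8 higher in every mutant library, whereas Pcdhgc4 splits into 10052 to 11722 and 5395 to 5750 by library number within both genotypes.

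Summed over the members of a cluster, where the division of reads among these members no longer matters, the differences were small. The alpha sum was 9780, 9209, 9345 and 9404 normalized counts in controls and 8760, 8943 and 8946 in mutants. All mutants lay below all controls, at 0.942 of the control mean, with ratios of 0.923 in libraries 2, 3 and 5 alone and 0.954 in 10 to 13 alone. Pcdha1 to Pcdha12 summed to 5613 ± 262 in controls and 5029 ± 148 in mutants, again without overlap, and the 2 C-type genes to 3822 ± 282 and 3854 ± 89.5 (SD, n = 4 and 3).

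The beta sum was 4311 to 5685 in controls and 4187 to 5206 in mutants, with a ratio of 0.934 and overlapping groups. Within each run of library numbers the mutants lay below the controls, with ratios of 0.923 in libraries 2, 3 and 5 and 0.896 in 10 to 13. The gamma sum was 34059, 28599, 27682 and 28423 in controls and 35006, 31934 and 30462 in mutants, with a ratio of 1.09. Control library 2 lay among the mutants there too, but within each run the mutants lay above the controls, with ratios of 1.12 and 1.11. Reads shared with genes outside the members are still divided, and with the Pcdhgb8 pseudogene entry added the gamma ratio was 1.09 as well. The sums were not tested.

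**Figure D4:**
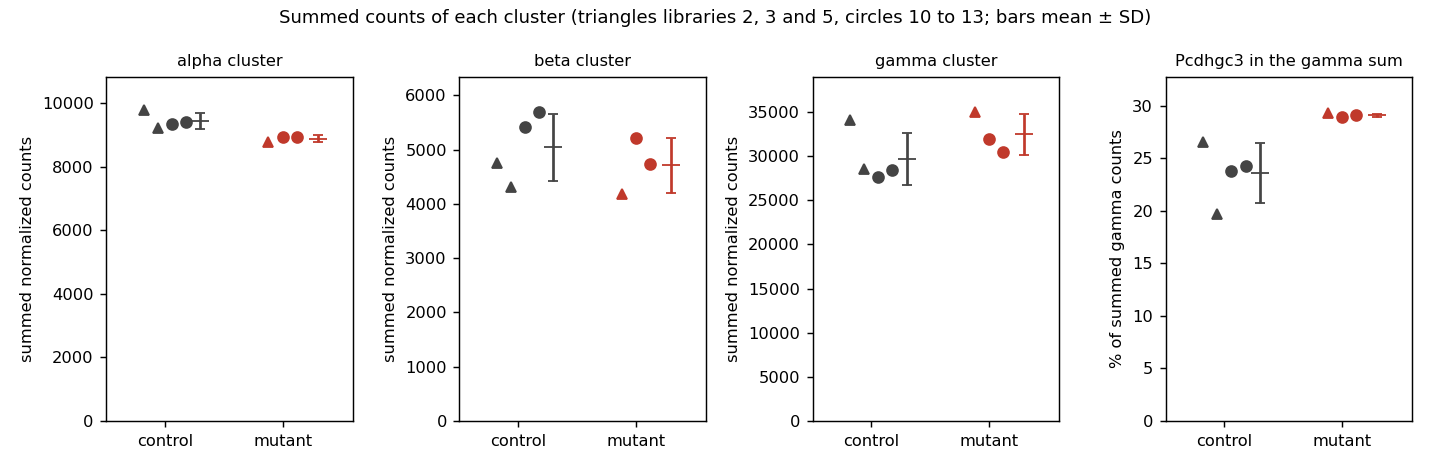
Summed normalized counts of the alpha, beta and gamma clusters, and the share of Pcdhgc3 in the gamma sum, by genotype, with 1 point per library (triangles for libraries 2, 3 and 5, circles for 10 to 13), bars for the mean ± SD and axes from 0. Alpha sums are 8760 to 8946 in mutants and 9209 to 9780 in controls, beta and gamma sums overlap over all libraries, and the Pcdhgc3 share is 28.9% to 29.3% in mutants and at most 26.5% in controls.

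The library numbers fall into a run of 2, 3 and 5 and a run of 10 to 13, each with both genotypes. The labels do not say what the numbers mark. Most beta and gamma genes were lower in the first run within both genotypes, with median log2 differences of -0.29 in controls and -0.26 in mutants for beta and -0.29 and -0.28 for gamma. For alpha genes these were 0.07 and -0.01, and over all tested genes -0.02 and 0.02. The 3 gamma C-type genes had medians of 0.08 and 0.18. The gamma sum was not lower in the first run, at 28599 to 35006 against 27682 to 31934. All 3 libraries of the first run lay below all 4 of the second for 11 of 56 members, 4 of them beta and 7 gamma, and above them for Pcdhgc4 alone, against 10.9% and 12.1% of all tested genes.

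Pcdhb16 had 175, 129 and 186 normalized counts in libraries 2, 3 and 5 and 237 to 281 in libraries 10 to 13. Pcdhgb7 had 298, 296 and 330 against 418 to 420. The summed GABAergic neuron markers also lay lower in the first run, at 33321 to 37946 against 39375 to 43046. Of the 6 single markers, however, 0 lay wholly lower there and 1 wholly higher. The sum of partners and effectors of the proteins was lower too, at 125458 to 134180 against 136817 to 149125. The sum of regulators of promoter choice was higher, at 47354 to 51797 against 44038 to 44921. Of 18 partners, 5 lay wholly lower in the first run and 3 wholly higher, and of 18 regulators 4 and 2. The regulator Dnmt3a alone had 14313 to 17400 in the first run and 9908 to 11063 in the second. The part of these lists in the members' values was not tested.

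The 4 members that edgeR called lower with the run as a covariate were Pcdha2, Pcdha10, Pcdhb12 and Pcdhb22, with log2 fold changes of -0.40, -0.44, -0.44 and -0.29 and adjusted p-values of 0.036, 0.032, 0.028 and 0.049 (edgeR). From the first run alone their log2 differences were -0.43, -0.55, -0.53 and -0.26, and from the second -0.38, -0.35, -0.38 and -0.29.

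**Figure D5:**
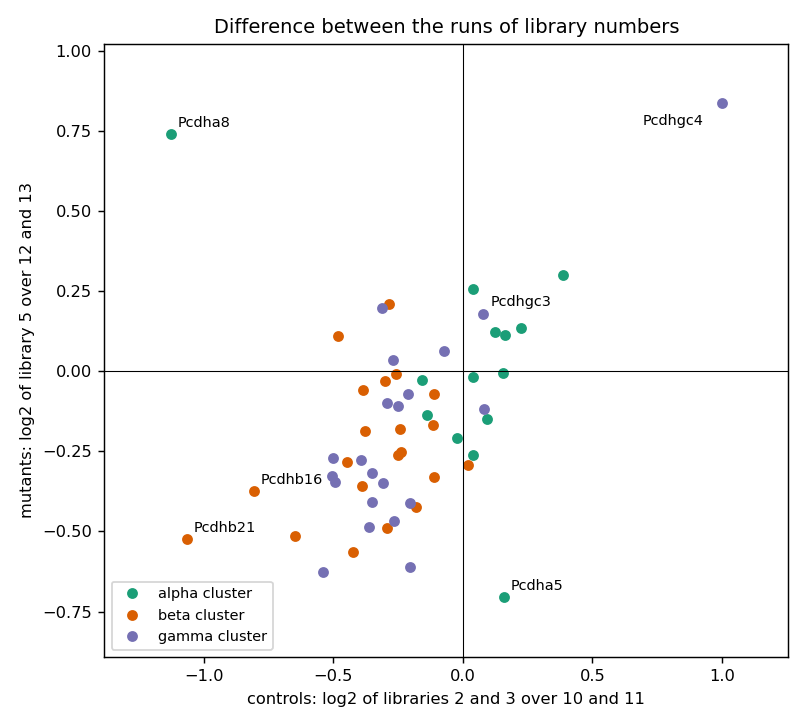
Log2 difference between the runs of library numbers for the 56 tested members, in controls (libraries 2 and 3 over 10 and 11, horizontal axis) and in mutants (library 5 over 12 and 13, vertical axis), coloured by cluster. Most beta and gamma genes lie at lower left, with medians between -0.26 and -0.29 on both axes, and Pcdhgc4 lies alone at upper right at 1.00 and 0.84.

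Genes that work with the clustered protocadherins were examined next. Of 18 regulators of promoter choice in the clusters, such as Ctcf, the cohesin subunit Rad21 and the chromatin factor Smchd1, edgeR called 0 lower and 0 higher, against 1.87% and 2.97% of all tested genes. Ctcf had 1844 ± 113 normalized counts in controls and 1660 ± 51.9 in mutants (SD, n = 4 and 3), with a log2 fold change of -0.15 and an adjusted p of 0.34 (edgeR). At an unadjusted p of 0.05 edgeR had 1 regulator lower and 1 higher, against 8.32% and 9.92% of all tested genes.

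Of 18 partners and effectors of the proteins, edgeR without a covariate called 1 lower and 0 higher, against the same 1.87% and 2.97%. It was Ptk2b, the kinase Pyk2, which gamma and alpha protocadherins bind, with 9925 to 11903 normalized counts in controls and 6803 to 8597 in mutants. The groups did not overlap, and the log2 fold change was -0.53 ± 0.11 with an adjusted p of 0.034 (edgeR). Leaving out any of control libraries 2, 10 and 11 or mutant libraries 5 and 13 raised the adjusted p to between 0.053 and 0.16 (edgeR). Wasf1 was also lower in every mutant library, with -0.31 ± 0.08 and adjusted p-values of 0.073 (edgeR) and 0.063 (limma-voom). DESeq2 called it at 0.0050, and edgeR with the covariate for the runs at 0.010.

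Of 12 protocadherins outside the clusters, edgeR without a covariate called 1 lower and 1 higher, again against 1.87% and 2.97%. Pcdh19, a delta protocadherin of the neuronal surface, had 2414, 2216, 2676 and 2370 normalized counts in controls and 1189, 1377 and 1406 in mutants. All mutants lay far below all controls, with a log2 fold change of -0.87 ± 0.10 and an adjusted p of 0.0021 (edgeR). Pcdh15, best known from the tip links of hair cells, had 965, 603, 902 and 973 in controls and 1764, 1568 and 1651 in mutants. It was higher in every mutant library, with 0.95 ± 0.16 and an adjusted p of 0.012 (edgeR), and without mutant library 13 the adjusted p was 0.061 (edgeR). Both differences were larger in size than any of the 56 estimates in the clusters.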

How the data were processed

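Forebrain RNA of 4 Lhx6+/- and 3 Lhx6-/- pools was sequenced. The authors trimmed 36-base single-end reads with CutAdapt 1.9.1, aligned them with Bowtie2 2.2.9 to the Ensembl release 84 transcriptome of GRCm38, and deposited expected counts per gene from RSEM 1.2.31 (versions from the submitters' processing notes). How the counting treated strand is not given in the sources used here. The deposited table of the authors' DESeq2 comparison holds fold changes and p-values, of which none were used, and gene symbols, which were.

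Members and lists were chosen with earlier results of these data known. Expected counts were rounded, a gene entered the test if 3 or more libraries held 10 or more of its counts, and genotypes were compared over 19684 genes in R 4.3.3 with edgeR 4.0.16 (TMM, quasi-likelihood F-test, Benjamini-Hochberg adjustment, threshold 0.05). The SE of a log2 fold change was its size divided by the root of its F statistic, and 95% intervals use edgeR's degrees of freedom. DESeq2 1.42.0, limma-voom (limma 3.58.1), other scalings and filters, the run of library numbers, and leaving out each library were alternatives, and the tests were checked on simulated data. Normalized counts are scaled to the mean effective library size. Within-run log2 differences used a pseudocount of 1. A count of 0 allows 3 counts, or up to 0.0921 CPM (counts scaled to the library total), for counting error only. Libraries of a genotype differed by more than sampling noise (chi-square per degree of freedom 10.2 to 72.6), so each counted as 1 sample, and p-values measure the spread between pools. Members were named if called by edgeR or DESeq2, at an unadjusted edgeR p of 0.05, with groups that do not overlap, C-type, not tested, or highest or lowest in level or fold change of a cluster. Other members named were chosen after their values were seen. Columns carry no replicate number, and 0 columns of per-sample values were left unused. Sequences were not used here.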

Additional observations from a re-analysis of the deposited data

Results flagged for a closer look

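For 58 members and 3 cluster sums, the 4 control libraries were searched for 1 library far from the others by Dixon's gap test at 95%. Chance alone gives about 1 such case in 20, and 6 of the 61 values had one. Control library 3 was the far one for 3 genes, being highest for Pcdha4 with 1003 normalized counts and lowest for Pcdhac2 with 2873 and for Pcdhga6 with 368. Control library 11 was lowest for Pcdha2 with 355, which was still above all mutants, and highest for Pcdhgb8 with 147, where every other library was at 0. Control library 2 was highest for the gamma sum with 34059. With 3 libraries, mutants were not searched.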

How the results depend on the processing

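The count of members called was 0 lower and 0 higher with limma-voom, RLE or upper quartile scaling, unrounded counts, no filter on low counts, and a filter of 10 counts in all 7 libraries. DESeq2 called 2 lower, the covariate for the runs 4 lower, and libraries 10 to 13 alone 1 higher. Leaving out 1 library gave 0 lower and 0 to 1 higher, the 1 being Pcdhgc3 without control library 2. Over all genes, 369 lower and 585 higher became 733 and 1001 with DESeq2, 992 and 1213 with the covariate, 803 and 1055 within libraries 10 to 13, and down to 79 and 223 without mutant library 13. The cause of these differences was not tested.

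The median log2 fold change of alpha genes was -0.17 within libraries 2, 3 and 5 and -0.045 in 10 to 13, against -0.08 over all libraries. That of gamma genes was 0.037 and 0.092, and 0.058 with the covariate, against 0.12. Leaving out 1 library gave -0.13 to -0.08 for alpha, -0.14 to 0.01 for beta, 0.04 to 0.24 for gamma and -0.07 to 0.05 for all members, and ratios of 0.934 to 0.953, 0.885 to 0.986 and 1.05 to 1.15 for the alpha, beta and gamma sums. Of single genes, Pcdha8 turned to -0.33 within libraries 10 to 13 (-0.36 to 0.47 with 1 library left out), Pcdhac2 to 0.0018 with limma-voom and 0.021 with upper quartile scaling (-0.073 to 0.026), and Pcdhgc4 to 0.016 with the covariate and 0.092 within libraries 10 to 13 (-0.50 to 0.055). Pcdhgb5 ranged from -0.066 to 0.17 with 1 library left out. None of these 4 was called in any of these settings. With 1 library left out, Pcdha7 moved between 0.0084 and 0.28, Pcdhb12 between -0.48 and -0.18, and Pcdhb21 between 0.16 and 0.62. In the same way Pcdhga3 gave 0.17 to 0.33, Pcdhga8 0.15 to 0.33, Pcdhga12 -0.26 to -0.11 and Pcdhgc5 0.073 to 0.24. Within libraries 10 to 13 alone, Pcdhb21 was at 0.097, Pcdhga3 at 0.13 and Pcdhgc5 at 0.079.

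No paired analysis was possible because the columns of the count table carry a genotype and a library number but no replicate number. Level per length depended most on the length used for Pcdha4. The order across clusters depended on it too, and Pcdhb20 had rank 29 per kilobase of own exon and rank 11 per kilobase of all exons. The shared constant exons, 36-base reads and 3 against 4 pools limit what can be said of single alpha and gamma genes.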
